A study of Mus musculus with 13 samples.

Results

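A set of 10 genes of iron handling and metal binding was followed in mouse liver after bile duct ligation (BDL), the surgical closure of the common bile duct that causes cholestasis. They were taken as a fixed list by their known roles and make up 10 of the 23079 genes in 1 count table and 10 of the 23725 in each of the other 2. Hamp and Hamp2 encode hepcidins, Bmp6 the signal that induces hepcidin, Trf transferrin, Tfrc the transferrin receptor, Slc40a1 the iron exporter ferroportin, Fth1 and Ftl1 the chains of ferritin, and Mt1 and Mt2 the metallothioneins. All 10 were found by their Entrez identifiers, and all 10 passed the filter on low counts in each of the 3 comparisons.

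The liver makes hepcidin, a hormone that binds ferroportin on macrophages and gut cells and sends it for degradation, so that less iron enters the blood. Hepatocytes also make transferrin, which carries iron in plasma, and store iron inside ferritin shells, while Kupffer cells recover iron from the haem of old red cells. Metallothioneins are small cysteine-rich proteins that bind zinc and copper, and their genes respond to these metals, to glucocorticoids and to inflammation.

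Liver RNA was sequenced from 13 C57 mice aged 3 months. The no BDL group held 5 mice that the labels call non treated. The miR-Ctrl BDL group held 4 mice with BDL that received a control inhibitor, and the anti-miR-873-5p BDL group held 4 mice with BDL that received a hairpin inhibitor of the microRNA miR-873-5p; they are shortened to miR-Ctrl and anti-miR mice below. In the study's methods, the mice were males, the inhibitors were injected with a lipid carrier on days 3 and 5 after surgery, and livers were taken on day 7. Whether the no BDL mice had sham surgery or any injection is not given in the sources used here, so the parts of ligation, surgery and injection cannot be told apart in any comparison with them. Whole liver was measured, so in every result below more cells of a type and more RNA per cell cannot be told apart. The labels number the mice as separate animals.

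Total counts ranged from 12185333 to 19689037 per mouse. Levels are given as CPM (counts relative to the library total), scaled by TMM, edgeR's trimmed mean of M values, across the 13 mice, while fold changes and tests come from the table of each comparison. A gene was called at an adjusted p below 0.05 in edgeR's quasi-likelihood test. Both BDL groups were set against the same 5 no BDL mice, so these comparisons are not independent of each other. The labelled tissue was matched by its markers, since the summed level of 9 hepatocyte markers, most of it Alb, lay between 47368 and 143796 CPM in every mouse.

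In 3 mice values stood apart, though not by a measure that all 3 share. A member's fold change is also given without these mice where that changed its call or its sign or moved it by more than 1.5 times. No BDL mouse 5 had a summed level of 12 acute-phase genes of 46904 CPM, against 11986 to 15718 in the other no BDL mice. The summed level of miR-Ctrl mouse 3 was 63965, against 13926 to 27674 in the rest of its group. For anti-miR mouse 2 this sum was 19951, inside the range of its group, while its Fth1 was at 1787, against 1137 to 1179 in the others. The authors' table of both BDL groups holds 3 mice per group and leaves out this mouse and miR-Ctrl mouse 3, and their methods state that outliers were removed, where present, after clustering and principal component analysis.

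The sequences through which iron is known to act on these messages are shown first. Iron-responsive elements are hairpins with a CAGTGN loop that bind iron regulatory proteins, in the 5′ UTR to block translation and in the 3′ UTR to protect the message from decay. The search was for C, 5 bases, CAGTGN with a last base other than G, and 5 bases that pair with the first 5, in GENCODE M21 transcripts on GRCm38, on the transcript strand. It found 1 element in the 5′ UTR of each of Fth1, Ftl1 and Slc40a1 and 4 in the 3′ UTR of Tfrc, and none in the other 6 genes. By the same search 195 of 21877 genes (0.891%) held at least 1. The loop is in capitals, and the first of the 4 Tfrc elements is shown.
Fth1, chr19:9982732-9982761, plus strand: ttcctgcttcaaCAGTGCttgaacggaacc
Ftl1, chr7:45459778-45459807, minus strand: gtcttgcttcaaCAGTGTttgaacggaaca
Slc40a1, chr1:45925464-45925493, minus strand: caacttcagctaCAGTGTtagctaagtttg
Tfrc, chr16:32631219-32631248, plus strand: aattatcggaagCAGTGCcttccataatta

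The hepcidin genes lie close together on chromosome 7, Hamp at 30942368 to 30944029 and Hamp2 at 30922372 to 30924181. The 250 bases before their RefSeq starts were 89.7% identical over the alignment. The stretch from 150 to 61 bases before each start is shown because it holds the BMP-responsive letters GGCGCC and the STAT letters TTCNNNGAA, in capitals, through which the BMP and IL-6 pathways are known to act on Hamp. Both motifs were searched on both strands in RefSeq windows from 250 bases before to 50 after a start, on GRCm38.p6.
Hamp, chr7:30944090-30944179, minus strand: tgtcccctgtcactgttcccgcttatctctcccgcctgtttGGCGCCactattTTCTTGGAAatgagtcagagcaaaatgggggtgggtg
Hamp2, chr7:30924242-30924331, minus strand: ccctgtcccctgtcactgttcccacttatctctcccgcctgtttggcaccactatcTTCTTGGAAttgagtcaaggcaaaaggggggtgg
GGCGCC was in the Hamp window and not in the Hamp2 window, and TTCNNNGAA was in both. Of 32851 promoter windows, 11.9% held GGCGCC and 8.30% held TTCNNNGAA.

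The metallothionein genes are neighbours on chromosome 8, Mt2 at 94172618 to 94173567 and Mt1 at 94178883 to 94180327. The metal-responsive letters TGCACNC or TGCGCNC, which the zinc sensor MTF1 is known to bind, were found 3 times in the Mt1 window and 4 times in the Mt2 window, on either strand. Windows with 3 or more matches made up 1.97% of all 32851. The 60 bases before each RefSeq transcript start are shown with these letters in capitals.
Mt1, chr8:94179029-94179088, plus strand: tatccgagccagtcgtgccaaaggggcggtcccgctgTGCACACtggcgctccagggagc
Mt2, chr8:94172558-94172617, plus strand: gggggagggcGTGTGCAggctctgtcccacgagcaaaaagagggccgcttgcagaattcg

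The treatment itself blocks miR-873-5p, whose mature RefSeq sequence is read from chr4:36668556-36668576, minus strand, with the seed (bases 2 to 8) in capitals.
miR-873a-5p: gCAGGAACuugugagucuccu
None of the 10 genes held the matching letters GTTCCTG in its annotated 3′ UTR, and 13.1% of 20706 genes did. The same search found none in Gnmt, the target that the study followed. This says only that these letters are not in those windows.

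Some reads of 50 bases could fit more than 1 gene. Of the 50-base windows of the Hamp transcripts, 16.6% also occur in Hamp2, and 58.4% of the Ftl1 windows occur in other genes, mainly the pseudogene Ftl1-ps1. For Trf 59.4% and for Mt2 45.8% of windows are shared, almost all with the predicted genes Gm20425 and Gm45774, in that order. Neither these nor Ftl1-ps1 are among the counted genes. How the counting treated such reads is not given in the sources used here, so Hamp and Hamp2 are best read together and the levels of Ftl1, Trf and Mt2 are uncertain.

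Divided by transcript length, transferrin was the most abundant message of the list in each group, with a median of 6327 CPM per kilobase in no BDL, 14494 in miR-Ctrl and 13114 in anti-miR mice. Ftl1 followed with medians of 2913, 3950 and 3439, and Hamp with 1557, 1542 and 1542. Fth1 came next, with medians of 716, 907 and 778, on the annotated transcript of 1494 bases. At the low end were Tfrc, with a median of 3.68 per kilobase in no BDL, and Bmp6, with 0.797. In no BDL the lowest Ftl1 value, 2616, was below the highest Hamp value of 2703, so these neighbours overlapped between mice. The spread within a group was very uneven across the list. In no BDL the coefficient of variation was 11.8% for Fth1 and 12.02% for Ftl1, 40.5% for Hamp, 163% for Mt1 and 203% for Mt2.

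**Figure D1:**
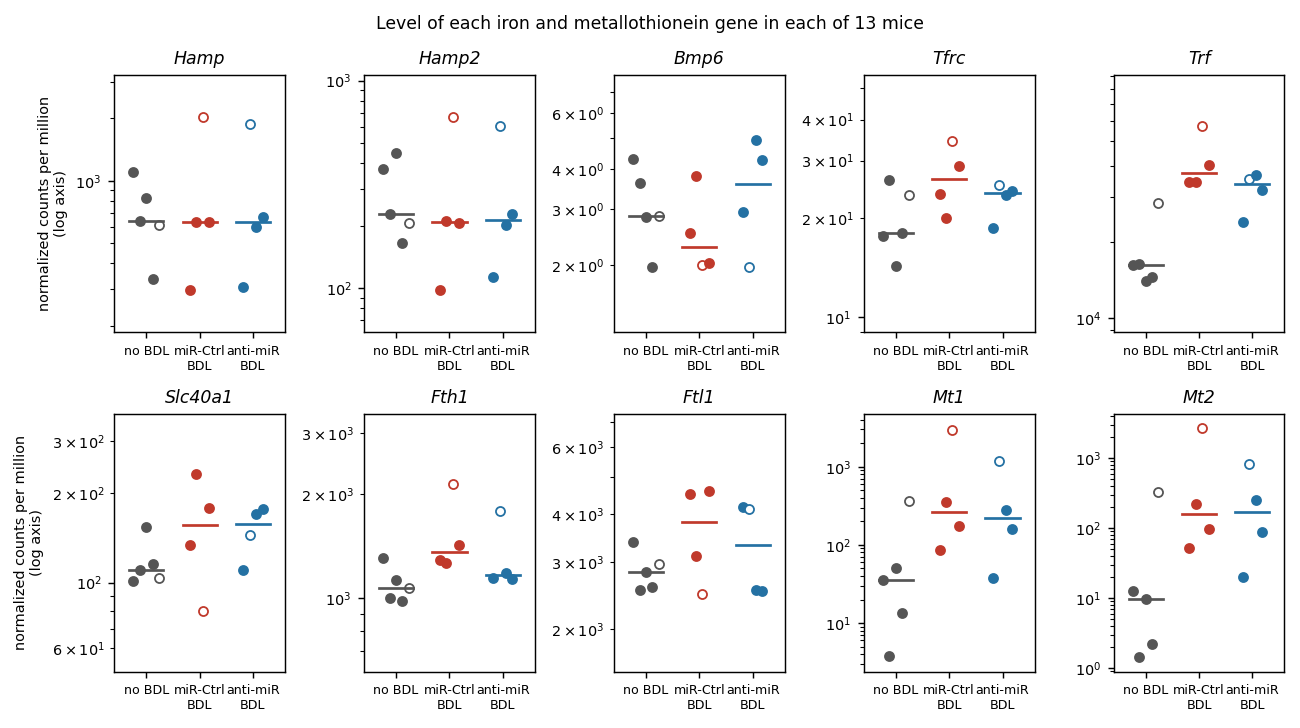
Normalized CPM (log axis, a separate scale per gene) in each of the 13 mice, with a line at the group median. Open circles are no BDL mouse 5, miR-Ctrl BDL mouse 3 and anti-miR-873-5p BDL mouse 2. Trf in the 4 miR-Ctrl BDL mice lies above all 5 no BDL mice, and the Mt1 and Mt2 values span about 3 powers of 10.

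Of the 10 genes, 1 was called in miR-Ctrl versus no BDL mice, which was Trf, where 35.7% of 13072 genes tested were called (edgeR's quasi-likelihood test). DESeq2's Wald test called 5134 genes there (39.4%) and 3 members, Trf, Fth1 at 0.52 ± 0.18 (adjusted p = 0.0122) and Mt1 at 3.29 ± 1.35 (adjusted p = 0.0387). In anti-miR versus no BDL mice none of the 10 was called, where 21.5% of 13130 genes were called (edgeR's quasi-likelihood test). At an unadjusted p of 0.05, Trf alone of the members and 4754 of all genes passed in the latter, and DESeq2's Wald test called 3630 genes (27.7%) and 1 member, Trf. The members' median log2 fold change was 0.44 in the former and 0.29 in the latter, beside medians of -0.01 and -0.0070 over all genes tested. Groups did not overlap for 1 of 10 members in the former, beside 29.6% of all genes, and for 0 of 10 in the latter, beside 18.6%. Without no BDL mouse 5 and the BDL mouse that stood apart, 5 members were called in miR-Ctrl mice, beside 45.4% of all genes, and 3 in anti-miR mice, beside 35.8%, and they are named with each gene. Without no BDL mouse 5 alone, 37.4% of all genes were called in miR-Ctrl and 23.6% in anti-miR mice, and without miR-Ctrl mouse 3 alone 42.3% in miR-Ctrl mice.

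The number of members called depended on the scaling, while Trf was called in miR-Ctrl mice under each scaling run. With library size alone all genes together shifted by a median log2 value of 0.79 in miR-Ctrl and 0.82 in anti-miR mice, and 97.1% and 98.7% of the calls were upward, beside 53.4% and 60.8% after TMM scaling. On that scale 7 members were called in each comparison, beside 73.7% and 77.6% of all genes. Without the 20 genes with the most counts, the shifts were 0.35 and 0.34, upward calls made up 87.8% and 92.9%, and 4 members were called in each, beside 45.8% and 36.1% of all genes.

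The hepcidin messages did not separate the groups. The level of Hamp was 1108, 638, 824, 337 and 612 CPM in no BDL mice 1 to 5. It was 297, 634, 2036 and 631 in the miR-Ctrl mice and 306, 1873, 596 and 669 in the anti-miR mice. In both BDL groups 1 mouse was above and 1 below all no BDL mice, and the high mice were the ones that the authors' BDL table leaves out. The log2 fold change of Hamp was 0.37 ± 0.51 (SE) in miR-Ctrl mice, with an adjusted p of 0.608, and 0.30 ± 0.49 in anti-miR mice, with an adjusted p of 0.689. With the mice that stood apart left out it was -0.46 ± 0.39 (adjusted p = 0.365) and -0.44 ± 0.40 (adjusted p = 0.416), so the sign of the difference depended on them.

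Hamp2, the other mouse hepcidin gene, had levels of 375, 227, 447, 165 and 205 in no BDL mice. In miR-Ctrl mice they were 98.0, 209.8, 668 and 205, and in anti-miR mice 113, 606, 201 and 226. The same BDL mice were at the top and the bottom as for Hamp. Its log2 fold change was 0.07 ± 0.50 in miR-Ctrl and 0.03 ± 0.46 in anti-miR mice, and -0.80 ± 0.37 (adjusted p = 0.107) and -0.72 ± 0.37 (adjusted p = 0.156) without the mice that stood apart.

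The share of hepcidin reads that were assigned to Hamp2 was almost constant among miR-Ctrl mice, 24.7% ± 0.132 (SD, n = 4). In no BDL mice it was 25.3%, 26.2%, 35.1%, 32.9% and 25.1%, and the miR-Ctrl mice were all below these 5. In an exact two-sided permutation test over mice, added after the values were seen, p was 0.0159 for miR-Ctrl (n = 4) versus no BDL mice (n = 5), the smallest this design can give, and 0.0952 after adjustment over 6 such tests of shares. In anti-miR mice the share was 25.5% ± 1.09, with an exact permutation p of 0.302 (n = 4 versus n = 5).

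Bmp6, made mainly by sinusoidal endothelial cells in response to iron, was rare in whole liver, with 24 to 87 reads per mouse. Its level, as mean ± SD, was 3.12 ± 0.888 (n = 5) in no BDL, 2.596 ± 0.847 (n = 4) in miR-Ctrl and 3.53 ± 1.34 (n = 4) in anti-miR mice. The groups overlapped, and the log2 fold change was -0.23 ± 0.28 (adjusted p = 0.565) in miR-Ctrl and 0.22 ± 0.31 (adjusted p = 0.651) in anti-miR mice. Without miR-Ctrl mouse 3 the former was -0.13 ± 0.29, and without anti-miR mouse 2 the latter was 0.40 ± 0.27, neither called. Of the 8 sinusoidal endothelial markers, 1, Oit3, was lower in miR-Ctrl mice, beside 16.6% of all genes, and none was called in anti-miR mice. Of these 8 markers 7 were summed, with Stab1 the most abundant. The sum was 117 to 182 in no BDL, 60.8 to 207 in miR-Ctrl and 98.7 to 204 in anti-miR mice. The part of these markers' cells in the Bmp6 level was not tested. Txndc5, a neighbouring gene, shares 4.55% of the Bmp6 windows, and the kit does not mark strand.

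Transferrin, the carrier of iron in plasma, was the member that rose. The level of Trf was 16266, 16308, 14076, 14544 and 28540 CPM in no BDL mice 1 to 5. It was 34478, 34422, 57151 and 40053 in miR-Ctrl mice and 24018, 35486, 36784 and 31944 in anti-miR mice. All 4 miR-Ctrl mice were above every no BDL mouse, and in the anti-miR group 3 of 4 were, because no BDL mouse 5 was above anti-miR mouse 1. The log2 fold change was 1.23 ± 0.32 in miR-Ctrl mice, with an adjusted p of 0.0148, and it was past the threshold in each of the alternatives run for this comparison. In anti-miR mice it was 0.86 ± 0.35, with an adjusted p of 0.103. Without no BDL mouse 5 the latter was 1.09 ± 0.32 and was called (adjusted p = 0.0364), as it was without both mice that stood apart, at 1.04 ± 0.29 (adjusted p = 0.0241).

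Tfrc, through which cells take up transferrin, had a level of 19.9 ± 4.78 (n = 5) in no BDL mice, as mean ± SD. It was 26.7 ± 6.24 (n = 4) in miR-Ctrl and 22.9 ± 2.89 (n = 4) in anti-miR mice. Its log2 fold change was 0.44 ± 0.20 (adjusted p = 0.114) and 0.22 ± 0.18 (adjusted p = 0.402), neither past the threshold.

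Ferroportin, encoded by Slc40a1, is the exporter of iron from cells and is abundant in Kupffer cells. Its level was 101, 111, 154, 116 and 104 in no BDL mice, 134, 232, 80.1 and 179 in miR-Ctrl mice and 111, 145, 169.9 and 177 in anti-miR mice. The lowest of the 13 values was that of miR-Ctrl mouse 3, and the groups overlapped in both comparisons. The log2 fold change was 0.45 ± 0.27 (adjusted p = 0.228) in miR-Ctrl and 0.39 ± 0.18 (adjusted p = 0.145) in anti-miR mice. Without miR-Ctrl mouse 3 the former was 0.66 ± 0.19 and was called (adjusted p = 0.0211), as it was without both mice that stood apart, at 0.62 ± 0.20 (adjusted p = 0.0330). Summed Kupffer cell markers, with C6 the most abundant, were 370 to 1092 in no BDL mice, 621 in miR-Ctrl mouse 3 and 899 to 1581 in the other miR-Ctrl mice. In anti-miR mice the sum was 367 to 1252, overlapping with no BDL, and it was lowest in mouse 2. Of 8 such markers, 3 rose in miR-Ctrl mice (Cd5l, Marco and Adgre1) and 1 in anti-miR mice (Marco), beside 19.1% and 13.1% of all genes, and their part in the ferroportin level was not tested.

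Ferritin heavy chain, Fth1, had levels of 1300, 1000, 1127, 978 and 1070 in no BDL mice. They were 1286, 1265, 2131 and 1423 in miR-Ctrl mice and 1146, 1787, 1179 and 1137 in anti-miR mice. The highest value of each BDL group came from the mouse that stood apart, and both groups overlapped with no BDL. The log2 fold change was 0.50 ± 0.18 (adjusted p = 0.0581) in miR-Ctrl and 0.28 ± 0.19 (adjusted p = 0.322) in anti-miR mice. Without miR-Ctrl mouse 3 the former was 0.30 ± 0.13 (adjusted p = 0.0962), and without anti-miR mouse 2 the latter was 0.10 ± 0.15 (adjusted p = 0.645). Its counts differed by 1 read between tables.

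Ferritin light chain, Ftl1, had a level of 2856 ± 343 (n = 5) in no BDL, 3677 ± 1056 (n = 4) in miR-Ctrl and 3338 ± 943 (n = 4) in anti-miR mice, as mean ± SD. The log2 fold change was 0.39 ± 0.23 (adjusted p = 0.205) and 0.25 ± 0.24 (adjusted p = 0.489). Without miR-Ctrl mouse 3 the former was 0.54 ± 0.18 and was called (adjusted p = 0.0356), as it was without both mice that stood apart, at 0.55 ± 0.18 (adjusted p = 0.0346). Without anti-miR mouse 2 the latter was 0.13 ± 0.23 (adjusted p = 0.700). The chains did not move in step in miR-Ctrl mouse 3, since Ftl1 took 53.7% of its ferritin reads, against 71.1% to 77.9% in the other miR-Ctrl mice and 71.4% to 73.5% in no BDL mice. Over groups the share of Ftl1 was 72.3% ± 0.798 in no BDL, 69.8% ± 11.1 in miR-Ctrl and 71.3% ± 4.80 in anti-miR mice, a difference within the spread between mice (exact permutation p = 0.810 and 0.746, n = 4 versus n = 5).

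The metallothioneins varied most of all members. Mt1 had levels of 35.2, 3.81, 49.99, 13.6 and 363 CPM in no BDL mice. It had 85.1, 355, 2975 and 172 in miR-Ctrl mice and 38.1, 1187, 281 and 161 in anti-miR mice. No BDL mouse 5 was above every other no BDL mouse and above 3 of 4 mice in each BDL group. Leaving it aside, all 4 miR-Ctrl mice and 3 of 4 anti-miR mice were above the remaining no BDL mice.

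Mt2 had levels of 12.9, 1.43, 9.88, 2.22 and 334 in no BDL mice. The values were 52.5, 219, 2690 and 96.2 in miR-Ctrl mice and 20.2, 826, 251 and 87.4 in anti-miR mice. All 8 BDL mice were above the other 4 no BDL mice, and no BDL mouse 5 was above 6 of the 8. Its reads ran from 15 in no BDL mouse 2 to 32291 in miR-Ctrl mouse 3.

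With all mice, TMM scaling and no term for the mouse number, neither gene passed edgeR's test. Library size alone called both in miR-Ctrl and Mt1 in anti-miR mice, and DESeq2's Wald test called Mt1 in miR-Ctrl mice (adjusted p = 0.0387) and gave Mt2 no adjusted p there. The log2 fold change of Mt1 was 3.27 ± 1.37 (adjusted p = 0.0891) in miR-Ctrl and 2.16 ± 1.23 (adjusted p = 0.239) in anti-miR mice. For Mt2 it was 3.40 ± 1.71 (adjusted p = 0.147) and 2.04 ± 1.52 (adjusted p = 0.370). With the mouse number as a replicate block, Mt1 was at 4.44 ± 1.01 (adjusted p = 0.0204) and Mt2 at 5.86 ± 1.19 (adjusted p = 0.0142) in miR-Ctrl mice, both called. In anti-miR mice they were at 3.27 ± 1.34 (adjusted p = 0.149) and 4.92 ± 1.46 (adjusted p = 0.0688), neither called. Number 5 occurs only in no BDL, so in both block fits that mouse gave no information on the group difference. These fits are thus close to those without it and are not separate evidence. Without no BDL mouse 5 both genes were called in both comparisons, Mt1 at 5.14 ± 1.30 (adjusted p = 0.0135) and 4.03 ± 1.10 (adjusted p = 0.0281), and Mt2 at 6.86 ± 1.52 (adjusted p = 0.00740) and 5.50 ± 1.20 (adjusted p = 0.0127). With only the BDL mouse that stood apart left out they were 1.15 and 0.80 for Mt1 and 0.79 and 0.75 for Mt2, none called. With both left out they were called again, at 3.02 ± 0.74 (adjusted p = 0.00904) and 2.67 ± 0.82 (adjusted p = 0.0334) for Mt1, and 4.24 ± 0.71 (adjusted p = 0.00137) and 4.21 ± 0.92 (adjusted p = 0.00865) for Mt2.

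Mt2 took 26.5% ± 13.4 (SD, n = 5) of metallothionein reads in no BDL, 39.9% ± 5.18 (n = 4) in miR-Ctrl and 39.5% ± 5.91 (n = 4) in anti-miR mice. No BDL mouse 5 was at 47.9%, while the other no BDL mice, at 14.1% to 27.3%, were below all 8 BDL mice, at 34.7% to 47.5%. With mouse 5 included, neither difference passed an exact permutation test (p = 0.143 and 0.111, adjusted 0.286).

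The no BDL mouse with the highest metallothionein level also had the highest acute-phase level of its group. Saa1, a serum amyloid made by hepatocytes during inflammation, was at 6823 in no BDL mouse 5 and between 47.7 and 98.3 in the other no BDL mice. Lcn2, a siderophore-binding protein that hepatocytes in this response and neutrophils make, was at 679 there against 2.86 to 8.55. In miR-Ctrl mouse 3, which had the highest Mt1 and Mt2 of its group, Saa1 was also the highest, at 5306, as was Lcn2, at 6606. In anti-miR mouse 2, which had the highest Mt1 and Mt2 of its group, Lcn2 was the highest, at 2166, and Saa1 the lowest, at 135. Orm1 and Hp were also the highest of the group in that mouse, at 3638 and 13516, and Saa2 the lowest, at 98.2. Orm2, at 1055, was inside the range of the group. Summed neutrophil markers, with S100a9 the most abundant, were 247 in miR-Ctrl mouse 3 against 24.8 to 75.3 in the rest of its group, and 22.4 in no BDL mouse 5 against 8.58 to 14.0 in the others. In anti-miR mouse 2 this sum was 20.6, the lowest of its group. The part of inflammation or of these cells in the metallothionein and Lcn2 levels was not tested.

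**Figure D2:**
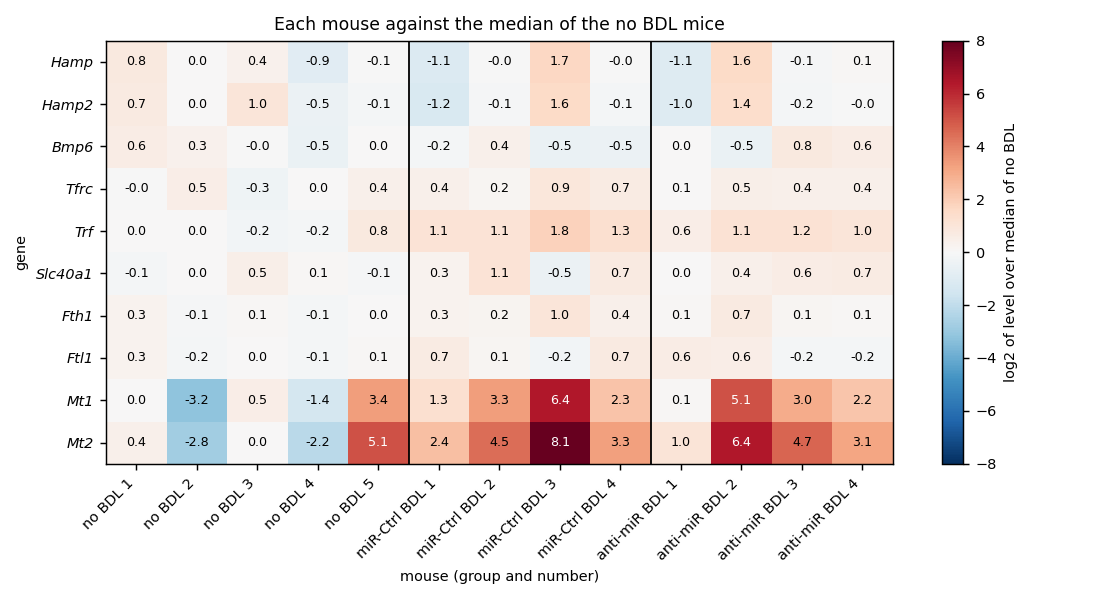
Level of each gene in each mouse as log2 of its ratio to the median of the 5 no BDL mice, from blue (below) to red (above). Mt1 and Mt2 are raised in no BDL mouse 5 as well as in BDL mice, and Hamp and Hamp2 are raised in miR-Ctrl BDL mouse 3 and anti-miR-873-5p BDL mouse 2 and lowered in mouse 1 of both BDL groups.

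What the inhibitor changed after BDL was asked by setting anti-miR beside miR-Ctrl mice, with 3 mice per group. None of the 10 genes was called, and neither was any of the 13746 genes tested (0.0%), while 863 passed an unadjusted p of 0.05 and DESeq2's Wald test called 29 (0.22%), none of them a member. The difference of Bmp6 was 0.53 ± 0.30 (adjusted p = 0.805) and that of Ftl1 -0.41 ± 0.29 (adjusted p = 0.830). For Trf the difference was -0.24 ± 0.30, for Mt1 -0.36 ± 0.73, for Mt2 -0.04 ± 0.85 and for Hamp 0.0046 ± 0.38. It was 0.07 ± 0.35 for Hamp2, -0.26 ± 0.25 for Slc40a1 and -0.13 ± 0.16 for Tfrc. With all 4 mice of each BDL group, the difference was -1.09 ± 1.26 (adjusted p = 0.980) for Mt1, -1.36 ± 1.40 (adjusted p = 0.980) for Mt2, -0.37 ± 0.38 for Trf, -0.14 ± 0.32 for Ftl1 and -0.05 ± 0.69 for Hamp. For Hamp2 it was -0.03 ± 0.66, for Slc40a1 -0.05 ± 0.31, for Tfrc -0.22 ± 0.18 and for Bmp6 0.45 ± 0.34. None was called, and Fth1 was not in that fit. In the fit of 3 mice per group, the median over members was -0.17, beside 0.0057 over all genes tested.

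Fth1 was the member whose groups did not overlap in this comparison. Its level was 1146, 1179 and 1137 in anti-miR mice 1, 3 and 4 and 1286, 1265 and 1423 in miR-Ctrl mice 1, 2 and 4, a log2 fold change of -0.20 ± 0.15 (adjusted p = 0.833). Such separation was present for 11.5% of all genes with identical counts in the tables. For Mt2 a difference of 1 log2 unit in either direction lay within 2 standard errors.

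**Figure D3:**
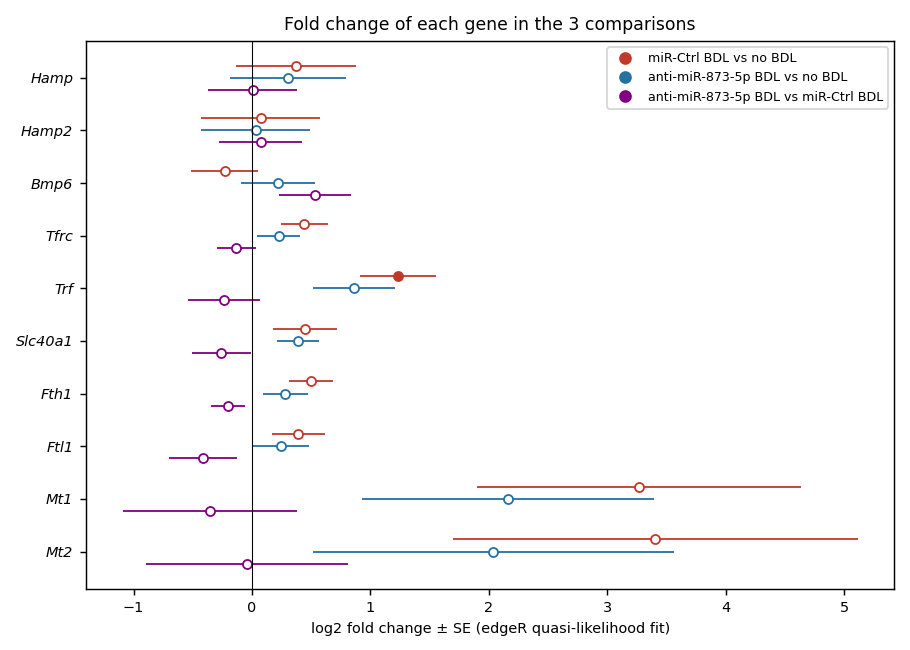
Log2 fold change of each gene with its standard error in the 3 comparisons. A filled point is past an adjusted p of 0.05, which holds for Trf in miR-Ctrl BDL mice, and the error bars of Mt1 and Mt2 are the widest.

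Genes around the members were taken from 7 lists of 94 genes in all, covering hepcidin regulation, iron transport and reduction, iron sensing, haem synthesis, haem uptake and breakdown, zinc and copper handling and acute-phase proteins. In miR-Ctrl mice, 19 of the 88 tested rose and 11 fell, beside 19.1% and 16.6% of all genes. In anti-miR mice 8 of 88 rose and 10 fell, beside 13.1% and 8.44%. These 18 calls became 31 without no BDL mouse 5, beside 23.6% of all genes, and 34 without both mice that stood apart, beside 35.8%. Without anti-miR mouse 3 they became 8, beside 1261 genes in all. With library size alone, 66 list genes were called in miR-Ctrl and 62 in anti-miR mice, beside 73.7% and 77.6% of all genes. None of 89 was called between the BDL groups by edgeR's test, and DESeq2's Wald test called 1 gene of the lists there.

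Of the haem synthesis genes, 6 of 9 fell in miR-Ctrl mice and none rose, with a list median of -0.56, beside 16.6% lower among all genes. In anti-miR mice 5 of 9 fell (Alas2, Cpox, Ppox, Urod and Fech), with a median of -0.53, beside 8.44%. Alas2, the first enzyme of haem synthesis in red cell precursors, was at 147 ± 31.9 (n = 5) in no BDL, 20.3 ± 11.4 (n = 4) in miR-Ctrl and 28.1 ± 25.5 (n = 4) in anti-miR mice, as mean ± SD. Its log2 fold changes were -2.82 ± 0.40 (adjusted p = 0.000814) and -2.35 ± 0.59 (adjusted p = 0.0210). Its groups did not overlap, which was part of the rule by which Alas2 was named and held for 29.6% and 18.6% of all genes. The summed erythroid markers, of which Hba-a2 made up 70.4%, ran from 415 to 3131 in no BDL, 117 to 722 in miR-Ctrl and 131 to 1290 in anti-miR mice, and their part in the Alas2 difference was not tested. Other enzymes of the pathway fell by less, with Cpox at -1.05 ± 0.26 (adjusted p = 0.0117) and -0.85 ± 0.17 (adjusted p = 0.00929), Urod at -0.57 ± 0.10 and -0.53 ± 0.12, and Ppox at -0.51 ± 0.15 and -0.57 ± 0.15, each called in both. Of 10 hepatocyte markers 6 fell in miR-Ctrl and 3 (Ttr, Serpina1a and Cyp2e1) in anti-miR mice, beside 16.6% and 8.44% of all genes. The summed level of 9 of them was 125338 to 143796 in no BDL, 54709 to 85510 in miR-Ctrl and 47368 to 108868 in anti-miR mice. The part of hepatocyte RNA in the differences of the haem synthesis genes was not tested.

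Of the genes that take up, move and break down haem, 6 of 12 rose and 1 fell in miR-Ctrl mice, with a median of 0.93, beside 19.1% and 16.6% of all genes. In anti-miR mice 3 of 12 rose (Hmox1, Flvcr2 and Slc48a1) and 1 fell (Slc46a1), with a median of 0.73, beside 13.1% and 8.44%, and the other 8 were not called. Hmox1, the enzyme that opens haem and frees its iron, was at 11.7, 11.9, 15.1, 9.37 and 33.2 in no BDL mice, 45.1, 88.8, 144 and 75.9 in miR-Ctrl mice and 27.2, 79.0, 66.3 and 75.5 in anti-miR mice. All miR-Ctrl mice and 3 of 4 anti-miR mice were above every no BDL mouse, with log2 fold changes of 2.46 ± 0.42 (adjusted p = 0.00192) and 1.95 ± 0.41 (adjusted p = 0.0107). Slc48a1, which moves haem out of the lysosome, was at 1.39 ± 0.12 (adjusted p = 0.000112) and 0.97 ± 0.13 (adjusted p = 0.00185), while Slc46a1, a folate and haem carrier, was at -0.68 ± 0.11 (adjusted p = 0.00144) and -0.65 ± 0.19 (adjusted p = 0.0356). Flvcr1, a haem exporter, was at 0.75 ± 0.20 (adjusted p = 0.0171) and 0.61 ± 0.21 (adjusted p = 0.0583), the latter not called.

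All 7 recruited macrophage markers rose in miR-Ctrl mice and 5 of 7 in anti-miR mice, beside 19.1% and 13.1% of all genes. Their summed level, with Cd68 the most abundant, was 8.63 to 32.4 in no BDL, 83.4 to 154 in miR-Ctrl and 53.7 to 152 in anti-miR mice. Among no BDL mice, mouse 5 had the highest sum of these and of the Kupffer cell markers and also the highest Hmox1. The part of these cells in the haem genes was not tested.

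Of the genes that carry or reduce iron, 4 of 13 rose in miR-Ctrl mice, among them Steap3, beside 19.1% of all genes. In anti-miR mice 2 rose and 1, Slc25a37, fell, beside 13.1% and 8.44%. Cp, ceruloplasmin, a plasma ferroxidase, was at 1.96 ± 0.29 (adjusted p = 0.00103) and 1.36 ± 0.29 (adjusted p = 0.0114), and Steap2, a metal reductase, at 1.31 ± 0.27 (adjusted p = 0.00504) and 1.16 ± 0.29 (adjusted p = 0.0215). Slc11a2, the ferrous iron transporter DMT1, was at 1.26 ± 0.33 (adjusted p = 0.0149) in miR-Ctrl mice and 0.39 ± 0.32 (adjusted p = 0.417) in anti-miR mice. Between the BDL groups Slc11a2 was at -0.66 ± 0.14 and was not called by edgeR's test (unadjusted p = 0.00204, adjusted p = 0.757). All 3 anti-miR mice were below all 3 miR-Ctrl mice, a separation present for 11.5% of all genes there. By edgeR's test a difference between these groups is thus not shown after adjustment. DESeq2's Wald test called 1 gene of the lists between these groups, and which gene it was is not given here. Lcn2 was at 4.63 ± 1.67 (adjusted p = 0.0543) and 3.47 ± 1.60 (adjusted p = 0.148), and Slc39a14, a carrier of zinc and unbound iron, at 0.43 ± 0.43 and 0.01 ± 0.21, none called. The mean Lcn2 level of no BDL mice was 140 CPM with mouse 5, at 679, and 5.50 without it. Lcn2 was at 1592 to 6606 in miR-Ctrl mice and 397 to 2166 in anti-miR mice. Slc39a14 was at 677 in miR-Ctrl mouse 3, against 111 to 213 in the rest of its group. Its fold change in miR-Ctrl mice was -0.36 without both mice that stood apart.

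Among regulators of hepcidin, 4 of 22 rose (Socs3, Id1, Bmpr1a and Smad1) and 2 fell (Acvr2a and Tmprss6) in miR-Ctrl mice, shares below the 19.1% and 16.6% of all genes. In anti-miR mice 2 rose (Socs3 and Bmpr1a) and 1 fell (Acvr2a), also shares below the 13.1% and 8.44% of all genes. Bmpr1a, a BMP receptor, was at 0.62 ± 0.11 (adjusted p = 0.00267) and 0.58 ± 0.13 (adjusted p = 0.0123), and Acvr2a, another receptor of the family, at -0.68 ± 0.12 (adjusted p = 0.00263) and -0.58 ± 0.16 (adjusted p = 0.0265). Tmprss6, the protease that cuts hemojuvelin and restrains hepcidin, was at 518 ± 36.2 (n = 5) in no BDL and 327 ± 39.1 (n = 4) in miR-Ctrl mice, as mean ± SD. The difference from no BDL on the log2 scale was -0.64 ± 0.13 (adjusted p = 0.00419) for miR-Ctrl and -0.47 ± 0.16 (adjusted p = 0.0637) for anti-miR mice, with no overlap in either. The sensors Hfe, at 0.14 ± 0.11 and -0.04 ± 0.12, Hjv (hemojuvelin), at -0.07 ± 0.25 and 0.16 ± 0.18, and Tfr2, at -0.37 ± 0.15 (adjusted p = 0.0844) and -0.29 ± 0.15 (adjusted p = 0.208), were not called. Socs3, a target of STAT3, and Id1, a target of BMP signals, rose in miR-Ctrl mice, at 2.82 ± 0.68 (adjusted p = 0.0100) and 1.71 ± 0.53 (adjusted p = 0.0300), both named after their values were seen. In miR-Ctrl mouse 3, the mouse with the highest Hamp, Socs3 was 268 and Id1 56.3, the highest of its group. Without mouse 3 the mean of miR-Ctrl mice was 43.0 instead of 99.2 for Socs3 and 19.1 instead of 28.4 for Id1. The no BDL means were 14.1 and 8.77. In anti-miR mouse 2, with the next highest Hamp, Id1 was 49.3, the highest of its group, and Socs3 was 60.5, below the 74.7 of anti-miR mouse 3.

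In iron sensing, Ireb2, which encodes iron regulatory protein IRP2 that binds the elements shown above, fell in both comparisons. It was at 75.2, 67.5, 96.6, 72.7 and 56.6 in no BDL mice, 38.1, 39.6, 46.9 and 41.1 in miR-Ctrl mice and 50.6, 37.7, 39.2 and 35.3 in anti-miR mice. The log2 fold changes were -0.81 ± 0.14 (adjusted p = 0.00257) and -0.83 ± 0.17 (adjusted p = 0.00894). Every BDL mouse was below every no BDL mouse, but a call without overlap was the rule by which Ireb2 was named. Groups did not overlap for 29.6% of all genes in miR-Ctrl and 18.6% in anti-miR mice. Fbxl5, the ligase that marks IRP2 for degradation when iron is plentiful, was at 0.36 ± 0.11 (adjusted p = 0.0312) in miR-Ctrl mice and 0.01 ± 0.12 in anti-miR mice. The list held 7 tested genes, and no other passed the test, where 19.1% of all genes rose and 16.6% fell in miR-Ctrl and 13.1% and 8.44% in anti-miR mice.

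Of the zinc and copper genes, 1 of 12 rose (Slc39a4) and 1 fell (Slc31a1) in miR-Ctrl mice, beside 19.1% and 16.6% of all genes. In anti-miR mice none rose and 1 fell (Slc30a10), beside 13.1% and 8.44%. Mtf1, the zinc sensor that drives metallothionein genes, was at -0.08 ± 0.11 and 0.0031 ± 0.09, and its target Slc30a1, a zinc exporter, at 0.17 ± 0.23 and 0.03 ± 0.16, neither called. Slc31a1, the copper importer, was at -0.70 ± 0.15 (adjusted p = 0.00519) in miR-Ctrl and -0.55 ± 0.20 (adjusted p = 0.0713) in anti-miR mice, and Slc30a10, a manganese exporter, at -0.92 ± 0.36 (adjusted p = 0.0744) and -1.53 ± 0.33 (adjusted p = 0.0118). Of 13 acute-phase genes 3 rose in miR-Ctrl mice, Orm1, Orm2 and Orm3, and 1 in anti-miR mice, Orm3, beside 19.1% and 13.1% of all genes. These counts include no BDL mouse 5, where Orm2 was at 1151, against 96.8 to 108 in the other no BDL mice. Anti-miR mice had Orm2 at 807 to 1772. Saa1 was at 6823 in no BDL mouse 5, against 47.7 to 98.3 in the other no BDL mice. It was at 438 to 5306 in miR-Ctrl and 135 to 841 in anti-miR mice.

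**Figure D4:**
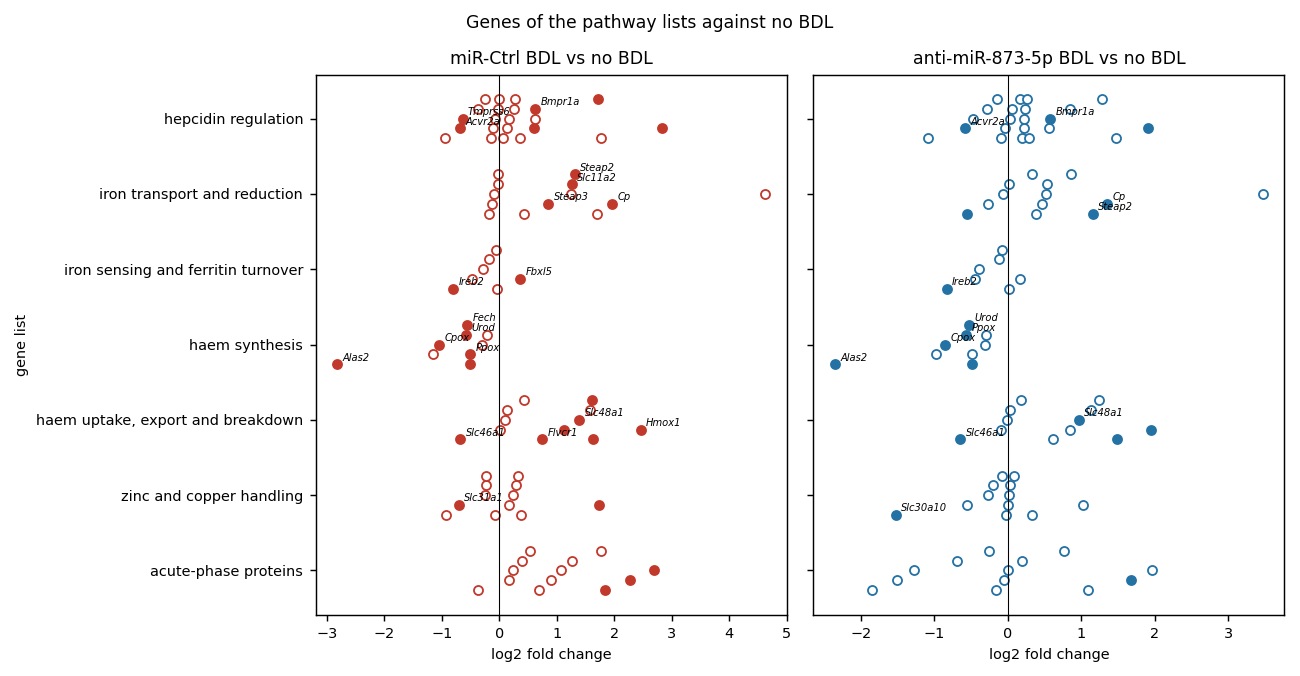
Log2 fold change against no BDL of each tested gene of the 7 lists, in miR-Ctrl BDL (left) and in anti-miR-873-5p BDL (right). Filled points are past an adjusted p of 0.05, and names mark those whose groups did not overlap. All called haem synthesis genes lie below 0.

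Across the 13 mice, the genes most like 3 of the members were ranked by Pearson's r among 12646 genes other than the members whose mean was 10 counts or more, given as a description since mice of a group share a treatment. Of these, Hamp was most like Gm5148 (r = 0.942), Rps23rg1 (0.912) and Rp9 (0.890). Slc40a1 was most like Mertk (0.887), a receptor of macrophages for dying cells, Nxpe4 (0.876) and Slc29a3 (0.869). Mt2 was most like Dusp8 (0.975), a phosphatase of stress kinases, Zbtb21 (0.967) and Lbp (0.951), the lipopolysaccharide-binding protein of the acute phase. Between members, r was 0.962 for Hamp and Hamp2 and 0.986 for Mt2 and Mt1. Over the 10 mice left without the 3 that stood apart, r of these 9 genes was between 0.779 and 0.964.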

How the data were processed

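The authors made TruSeq RNA v2 libraries from liver RNA extracted with Trizol, sequenced single reads of 50 nt, and deposited raw counts per Entrez gene in 1 table per comparison. The submitters' processing notes name CASAVA 1.8.2, FastQC, Trim Galore, TopHat, DESeq2 and the build mm10. The counting program, its strand setting and its annotation are not given in the sources used here. Of the 23019 genes in both annotations, 22246 had identical counts and were set on 1 scale across the 13 mice. Fth1, whose counts differed by 1 read, was kept on that scale, and others that differed, such as Cp and Tfr2, are given as fold changes of their own table only.

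Tests were run in R 4.3.3 on the deposited counts with edgeR 4.0.16 (filterByExpr, TMM, glmQLFTest), with Benjamini-Hochberg adjustment over all genes tested. DESeq2 1.42.0, other scalings, filters and sets of mice were the alternatives. Each SE was obtained as the size of the fold change over the root of its F statistic. On simulated counts, with 200 genes altered by 2 log2 units, 91.5% were recovered for miR-Ctrl versus no BDL mice (13072 genes), 90.0% for anti-miR versus no BDL mice (13130 genes) and 91.0% between the BDL groups (13746 genes). Unaltered genes made up 4.7%, 3.2% and 4.7% of the calls, in that order. No mouse was made to stand apart in these counts, so the recovery does not carry over to genes such as Mt1 and Mt2. Likeness was taken on log2 of the level plus 1.

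The 10 genes, the gene and marker lists and the tests were chosen with earlier results of these data known. Besides the members, genes named are 9 fixed ones (Hmox1, Hfe, Hjv, Tfr2, Tmprss6, Lcn2, Slc39a14, Mtf1, Slc30a1) and, per list and comparison with no BDL, up to 3 called genes with the largest change whose groups did not overlap. Others are named with a count of 5 or fewer, or after their values were seen. The stellate cell, cholangiocyte and neutrophil lists held 7 markers each. Of those that passed the filter on low counts, 2 of 7, 5 of 6 and 4 of 5 were higher in miR-Ctrl mice. In anti-miR mice these were 2 of 7, 5 of 6 and 3 of 4, beside 19.1% and 13.1% of all genes. A marker rare in no BDL mice can pass that filter through the BDL group alone, so these shares are partly set by it. Of 8 erythroid markers Klf1 was lower among 3 tested in miR-Ctrl mice, and 0 of 6 tested passed in anti-miR mice.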

Additional observations from a re-analysis of the deposited data

Results flagged for a closer look

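Of the 30 sets of values (10 genes in 3 groups), 7 held a mouse far from the rest by Dixon's test on CPM without logs. In no BDL mouse 5 this was Trf at 28540 CPM (others 14076 to 16308), Mt1 at 363 (others 3.81 to 49.99) and Mt2 at 334 (others 1.43 to 12.9). In miR-Ctrl BDL mouse 3 it was Mt1 at 2975 (others 85.1 to 355) and Mt2 at 2690 (others 52.5 to 219). Fth1 was at 1787 in anti-miR mouse 2 (others 1137 to 1179), and Slc40a1 at 154 in no BDL mouse 3 (others 101 to 116). The same mouse had high Trf, Mt1, Mt2 and acute-phase sums in no BDL, and the cause was not tested.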

How the results depend on the processing

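For 81 fold changes (the members and the 9 fixed genes in each comparison, and other genes only in the comparison with no BDL by which the rule named them), 1393 values under alternatives were computed, of which 1194 kept their direction and their side of the threshold, 78 changed sign, 71 became called and 50 were no longer called. Trf in miR-Ctrl versus no BDL mice kept its call throughout. Causes of the changes below were not tested.

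With library size alone 9635 genes, 7 members and 66 pathway genes were called in miR-Ctrl and 10194, 7 and 62 in anti-miR versus no BDL mice. On that scale, relative to the median of all genes, Hamp2 was at -0.035 and -0.045, and Mt2 between the BDL groups at 0.0081. Without the 20 genes with the most counts, 4 members and 5982 genes were called in miR-Ctrl and 4 members and 4745 genes in anti-miR mice, with Hamp2 at -0.014 and -0.013. DESeq2's Wald test called 3 members (Fth1, Mt1 and Trf) and 5134 genes in miR-Ctrl and 1 and 3630 in anti-miR mice, and 29 genes and 1 pathway gene between the BDL groups, where Hamp was at -0.0039, or -0.0038 with DESeq2 size factors in edgeR. At an adjusted p of 0.1, 3 members and 5786 genes were called in miR-Ctrl mice. With all genes of at least 1 count, Mtf1 was at -0.0084 and Slc39a14 at -0.00051 in anti-miR versus no BDL mice, and with a mean of at least 10 counts Mtf1 was at -0.0018.

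With all 13 mice in 1 fit, Mtf1 was at -0.021 and Slc39a14 at -0.011 in anti-miR versus no BDL mice, and between the BDL groups Hamp was at -0.063, Hamp2 at -0.042, Hjv at 0.24 and Slc39a14 at -0.43. With all 4 mice of each BDL group, the last 4 were -0.054, -0.033, 0.24 and -0.42.

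Same-numbered mice correlated between -0.20 and 0.39 in their deviations from group means. The value of 0.39 was that of mouse 1 of the BDL groups, beside -0.05 for mouse 4 of these groups. Against no BDL the values ran from -0.20 to 0.08. Differently numbered mice were not set beside these values, so whether the numbers pair the samples cannot be decided from them. With the mouse number as a replicate block, 4063 genes and 3 members (Trf, Mt1 and Mt2) were called in miR-Ctrl, 2195 genes in anti-miR and 0 between BDL groups. A mouse whose number is in 1 group only gave no information on the group difference in this fit. This holds for no BDL mouse 5, and between the BDL groups only numbers 1 and 4 were shared. Under the replicate block Hamp2 was at -0.23 in both comparisons with no BDL, Slc39a14 at -0.017 in anti-miR mice and Hfe at 0.054 between the BDL groups.

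With both mice that stood apart left out, an alternative chosen after seeing the data, 5 members and 6064 genes were called in miR-Ctrl mice, and 4819 genes, 3 members and 34 pathway genes in anti-miR mice. Signs changed in miR-Ctrl mice for Hamp (-0.46), Hamp2 (-0.80), Hjv (0.14), Slc30a1 (-0.095) and Slc39a14 (-0.36), and in anti-miR mice for Hamp (-0.44), Hamp2 (-0.72), Hfe (0.087), Slc30a1 (-0.15) and Slc39a14 (-0.12).

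Leaving out 1 mouse at a time gave 1 to 3 members and 3775 to 5710 genes called in miR-Ctrl versus no BDL mice. In anti-miR versus no BDL mice it gave 1261 to 4317 genes, 0 to 3 members and 8 to 31 pathway genes, and between the BDL groups 0 to 1 genes. The highest gene count came without anti-miR mouse 2 and the lowest counts without anti-miR mouse 3 (1261) or 4 (1392), while 31 pathway genes and 3 members were called without no BDL mouse 5, and 8 and 10 pathway genes without anti-miR mouse 3 or 4. Log2 fold changes that changed sign ranged in miR-Ctrl versus no BDL mice from -0.41 to 0.66 for Hamp, -0.71 to 0.36 for Hamp2, -0.25 to 0.13 for Hjv, -0.093 to 0.32 for Slc30a1 and -0.38 to 0.70 for Slc39a14. In anti-miR versus no BDL mice they ranged from -0.40 to 0.58 for Hamp, -0.63 to 0.29 for Hamp2, -0.10 to 0.041 for Hfe, -0.057 to 0.050 for Mtf1, -0.15 to 0.096 for Slc30a1 and -0.14 to 0.20 for Slc39a14. Between the BDL groups they ranged from -0.27 to 0.27 for Hamp, -0.20 to 0.31 for Hamp2, -0.14 to 0.033 for Hfe, -0.26 to 0.010 for Hjv, -0.58 to 0.012 for Hmox1, -1.04 to 0.31 for Mt1, -1.20 to 0.68 for Mt2, -0.20 to 0.22 for Slc30a1, -0.25 to 0.0081 for Tfrc and -0.016 to 0.27 for Tmprss6.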
